A study of Homo sapiens with 3 samples.

Results

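The regions described here are the sites at which RNA polymerase II (Pol II) was called both with and without a CK2 inhibitor and at which no binding of the kinase subunit CK2α was called nearby. A region of the vehicle (DMSO) Pol II list was taken if it shared at least 1 bp with a region of the TBBz Pol II list and if no CK2α region centre lay within 1000 bp of its own centre. The members were thus chosen by the measured region calls of all 3 lists, and they numbered 7731 of the 21819 regions of the DMSO list. They are called CK2α-free shared regions below, and they are set beside the 8381 shared regions that had a CK2α centre within 1 kb, called CK2α-near.

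The cells were LNCaP, an androgen-responsive human prostate carcinoma line, at passages 40 to 45, held for 3 days in charcoal-stripped serum. In the first Pol II library the cells had received 25 μM TBBz (a CK2 inhibitor, a brominated benzimidazole) for 2.5 hours, with 100 nM DHT (dihydrotestosterone, a ligand of the androgen receptor) present for the last 1.5 hours. In the second Pol II library the vehicle DMSO replaced TBBz. The CK2α library came from cells given 100 nM DHT without inhibitor, for 2.5 hours by one label and 90 min by another. All the cells therefore had hormone, all came from 1 line, and TBBz was the single means of inhibition, so loss of CK2 activity and other effects of the compound cannot be told apart. The source label of both Pol II libraries mentions TBBz, so the groups rest on the treatment labels; exchanged libraries would swap every region called with TBBz only and with DMSO only.

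Chromatin immunoprecipitation sequencing (ChIP-seq) recovers the DNA to which a protein is crosslinked, and a called region is a place where its reads pile up. Pol II transcribes protein-coding genes and many noncoding RNAs. It is loaded at promoters, commonly pauses shortly downstream of the start site, and is then released into elongation by kinases that act on its tail and on the factors that hold it. CK2 is a constitutively active serine/threonine kinase with catalytic α subunits and regulatory β subunits, and factors of the transcription machinery are among its many substrates. The series title names elongation as the process under study.

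The libraries held 22345614 tags for Pol II with TBBz, 15466579 for Pol II with DMSO and 19021404 for CK2α. There was 1 library per group, so the spread between replicates is unknown and nothing was tested. Shares are given with exact 95% binomial intervals by the Clopper-Pearson method, and medians with the matching order-statistic intervals. They cover counting error alone, and they treat regions of 1 library as independent, which neighbouring regions are not. A region is absent from a list when it was not called, not when the protein was shown to be missing: of the 56238 candidate CK2α sites, the authors' peak caller discarded 42856 for lack of a 4-fold rise over the local 10 kb. All positions are in hg19. No annotation or genome of that build was used here, so no region is assigned to a gene or a promoter and no sequence is shown.

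The CK2α-free shared regions made up 35.4% of the DMSO list and 48.0% of the 16112 shared regions (47.2 to 48.8%). For the background, 73.8% of all DMSO regions overlapped a TBBz region and 52.5% had no CK2α centre within 1 kb. Of the DMSO regions without CK2α, 67.5% were found again with TBBz, against 80.9% of those with CK2α. These shares follow from the calls that chose the regions and are given as a description. Each CK2α-free shared region met exactly 1 TBBz region, and the 7731 TBBz regions they met were all different. The caller's settings, a size of 200 bp and at least 500 bp between regions, fixed this in advance.

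Of the first 10 CK2α-free regions of the DMSO list, 5 had a partner before place 40 of the TBBz list. The deposited order of the DMSO list follows the number in each region's name (Spearman's rho of at least 0.996 within each chromosome) and was taken as an order of strength, which could not be checked against tag counts. The region chr6:32939902-32940102 stood at place 10 in the DMSO list, and its partner stood at place 9 in the TBBz list. The region chr11:65190215-65190415 stood at place 11, and its partner chr11:65190268-65190468 opened the whole TBBz list at place 1. The region chr12:125399035-125399235 was at place 20, with a partner at place 8. Each of these 3 sites was thus among the foremost Pol II regions of both lists, although the nearest CK2α centre lay 77932, 31953 and 12715 bp away.

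A further group of the first CK2α-free regions had partners much farther down the TBBz list. The region chr17:43225796-43225996, at place 17 in the DMSO list, had its partner at place 510 with TBBz. The region chr11:65266448-65266648 was at place 29 with a partner at place 314, and chr14:103989033-103989233 was at place 39 with a partner at place 1015. The TBBz list is the longer one and places carry no size, so these pairs of places show no change in the amount of Pol II. Among the first 10 CK2α-free regions, 1 of which is not named because it lies on chromosome 8, the nearest CK2α centre was between 5894 and 88721 bp away.

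Beside most of these leading sites, further regions were called with TBBz. Of the first 10 CK2α-free regions, 8 had within 10 kb at least 1 TBBz region that overlapped no DMSO region. Over the whole first 10% of the DMSO list, this held for 41.1% of CK2α-free and 22.4% of CK2α-near regions. Beside chr12:125399035-125399235 there were 3 such regions, including chr12:125401657-125401857 and chr12:125402245-125402445 at distances of 2622 and 3210 bp. Beside chr11:65266448-65266648 there were also 3, at 1262, 2621 and 9322 bp. Beside chr17:80055968-80056168 there were 3, the nearest of which, chr17:80055276-80055476, lay 692 bp away. Another DMSO region lay within 10 kb of 2 of the same 10 sites. Over the whole first 10% of the list, this held for 45.9% of CK2α-free and 35.2% of CK2α-near regions. The few DMSO neighbours of the first 10 sites were thus not typical of that part. These DMSO neighbours may overlap a TBBz region, so they are not the counterpart of the TBBz-only count. The TBBz list is the longer one, so these counts do not stand on equal terms.

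The share of shared Pol II regions that lacked CK2α grew along the DMSO list. In the first 10% of the list, 542 of 2016 shared regions were CK2α-free, which is 26.9% (25.0 to 28.9%). The share was 43.5% in the fifth 10%, 57.8% in the sixth and 86.3% in the last 10% (83.6 to 88.6%). The intervals of the first and last parts lie far apart. With CK2α counted only where regions overlap, the shares were 66.9% in the first 10% and 91.4% in the last, so the level at the head of the list depended on the distance allowed. The CK2α-free regions were most numerous in the seventh 10%, with 1091, whereas the CK2α-near regions were most numerous in the first, with 1474, and fell to 107 in the last. The median CK2α-free region accordingly stood at 57.1% of the list (56.3 to 57.9%) and the median CK2α-near region at 29.8%. The same order was seen with TBBz, where the share without CK2α was 28.7% in the first 10% of the TBBz list and 83.3% in the last.

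**Figure D1:**
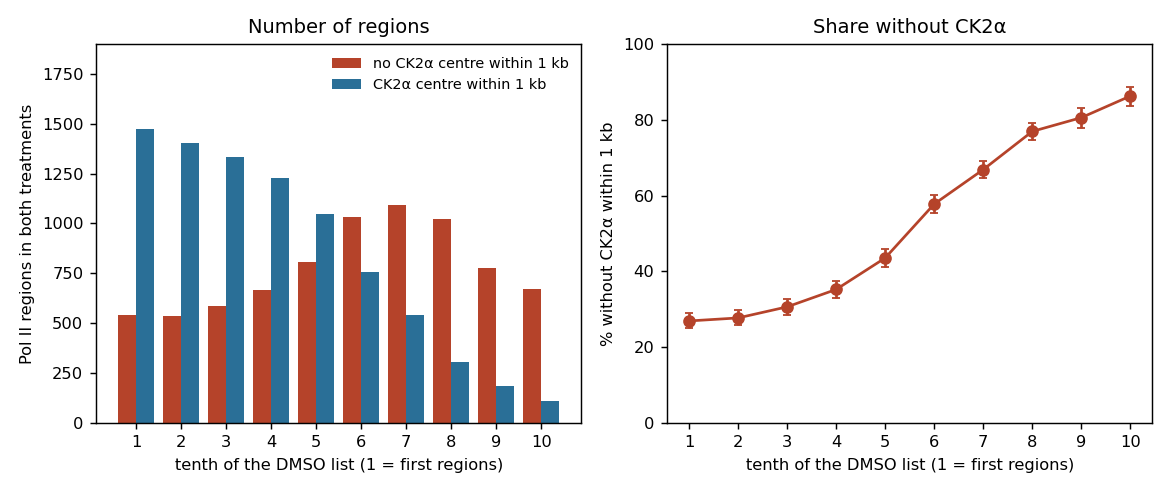
Left, the number of Pol II regions called in both treatments in each successive 10% of the DMSO list, for regions without and with a CK2α centre within 1 kb; right, the percentage without CK2α, with exact 95% binomial intervals. The share without CK2α is 26.9% in the first 10% and 86.3% in the last.

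CK2α-free regions were nevertheless present at the head of the lists. Among the first 100 shared regions, 28 were CK2α-free by the DMSO order (19.5 to 37.9%) and 25 by the TBBz order. Among the first 1000 they were 261 and 291. The share at the head of either list was therefore about as large as in the whole first 10%.

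Within the same part of the DMSO list, the rates at which regions without and with CK2α were found again with TBBz lay closer together than over the whole list, and their order varied. In the first 10%, 92.6% of CK2α-free regions (90.2 to 94.6%) and 92.3% of CK2α-near regions (90.9 to 93.6%) had a TBBz partner. In the fifth 10% the rates were 88.1% (85.8 to 90.1%) and 82.9% (80.7 to 85.0%), and in the eighth they were 62.5% (60.1 to 64.8%) and 55.7% (51.5 to 59.9%). The intervals did not overlap in the fifth, the seventh and the eighth 10%. In the ninth the order was the opposite, with 43.5% (41.2 to 45.9%) and 46.6% (41.7 to 51.7%). In the last 10% the rates were 36.2% (34.0 to 38.4%) and 33.1% (28.0 to 38.6%). The intervals overlapped in both of these parts. The lower overall rate of the CK2α-free regions thus went with their later places in the list. Partner calls chose these regions, so the rates are descriptive.

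Most CK2α-free regions lay far from any CK2α region. The median distance to the nearest CK2α centre was 37103 bp (35592 to 38517 bp), with quartiles of 14376 and 94275 bp. No CK2α centre lay within 10 kb of 6374 regions (82.4%), none within 100 kb of 1810 (23.4%) and none within 1 Mb of 72 (0.931%). The rule sets the lower limit of these distances at 1001 bp but not their spread above it.

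The distances were not evenly spread around the limit of 1000 bp. There were 253 shared regions with a CK2α centre between 1000 and 1500 bp away and 84 between 1500 and 2000 bp. The number per 500 bp then fell to 36 between 3000 and 3500 bp and was higher again farther out, at 89 between 6000 and 6500 bp. Distances between neighbouring DMSO Pol II regions had the same shape: 692 shared regions had their nearest DMSO neighbour at 1000 to 1500 bp, 99 at 3000 to 3500 bp and 271 at 6000 to 6500 bp. Per the file headers, each candidate was compared with the 10 kb around it, and the part of that filter in this shape was not tested.

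**Figure D2:**
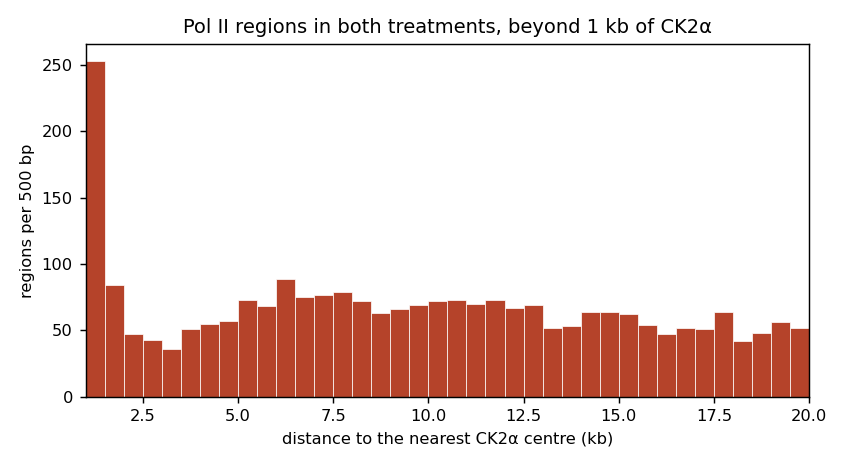
Number of Pol II regions called in both treatments, per 500 bp of distance to the nearest CK2α centre, from 1 to 20 kb (horizontal axis in kb). The count is 253 in the first bar, 36 between 3000 and 3500 bp and 89 between 6000 and 6500 bp.

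At the limit itself the choice of members separated near neighbours. The members just outside it had a CK2α centre 1001 bp away, for instance chr6:64282354-64282554 at place 1085, chr6:27114831-27115031 at place 1161 and chr12:53774033-53774233 at place 9404. Just inside it, and so not counted as CK2α-free, were chr2:242577023-242577223 and chr6:36098068-36098268 at 1000 bp and chr1:35658609-35658809 at 999 bp. Of all CK2α-free regions, 337 (4.36%) had their nearest CK2α centre between 1 and 2 kb away.

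The 10 most remote members were found mainly on chromosome X. Remote members as a whole were not mainly there, but a larger share of them lay there than of all members. Of the 72 CK2α-free regions with no CK2α centre within 1 Mb, 20 lay on chromosome X. Of all 7731 CK2α-free regions, 255 lay on that chromosome. Of the 10 CK2α-free regions farthest from CK2α, 8 lay on chromosome X and the remaining pair on chromosome 4. The farthest was chrX:90689750-90689950, 7247429 bp from a CK2α centre, and chrX:90586464-90586664 stood 103286 bp from it. The pair on chromosome 4, chr4:34336241-34336441 and chr4:34336859-34337059, was 618 bp apart and 2.92 Mb from CK2α. These 10 farthest regions stood late in the list, with 1 at place 6696 and the others from place 11239 to 21146. The 72 regions with no CK2α centre within 1 Mb stood at a median of 70.0% of the DMSO list, against 57.1% for all CK2α-free regions. Whether this order follows strength could not be checked.

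Along the chromosomes, CK2α-free regions were densest where genes are dense. They numbered 9.47 per Mb on chromosome 19, 6.91 on chromosome 22 and 5.97 on chromosome 17, against 1.37 on chromosome 4, 1.68 on chromosome X and 0.249 on chromosome Y. Across 24 chromosomes this density followed that of protein-coding genes (RefSeq, GRCh38.p14) at a Pearson's r of 0.974 and a Spearman's rho of 0.950, and r was 0.953 when chromosomes 19 and Y were left out. Gene density was taken over the same spans, so both densities share a denominator. Chromosomes share the libraries and are not replicates, so the coefficients are descriptions. They were taken for the CK2α-free regions alone. CK2α-near regions were about as numerous as CK2α-free ones on chromosome 19 (565 and 557) and on chromosome 17 (494 and 484). They numbered 328 against 262 on chromosome 4. The high density on chromosomes 19 and 17 was thus not particular to CK2α-free regions.

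The share of shared regions that lacked CK2α was close to 48.0% on most chromosomes, with 3 exceptions. It was 57.9% on chromosome 22 (242 of 418, 53.0 to 62.7%), 58.0% on chromosome X (255 of 440, 53.2 to 62.6%) and 23.0% on chromosome Y (14 of 61, 13.1 to 35.5%). On the other chromosomes it lay between 44.4% on chromosome 4 and 50.1% on chromosome 2. Since the share depends on the place in the list, it was also taken within the first 50% of the DMSO list, where it was 32.6% over all chromosomes. There it was 42.3% on chromosome 22 (35.8 to 49.0%), 36.8% on chromosome X (30.0 to 44.1%) and 4.76% on chromosome Y, from 1 of 21 regions. The interval of chromosome 22 lies above the overall share of that part of the list, as do those of chromosomes 11, 16, 17 and 19 (37.3 to 38.0%), while those of chromosomes 5, 10 and Y lie below it and that of chromosome X includes it.

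**Figure D3:**
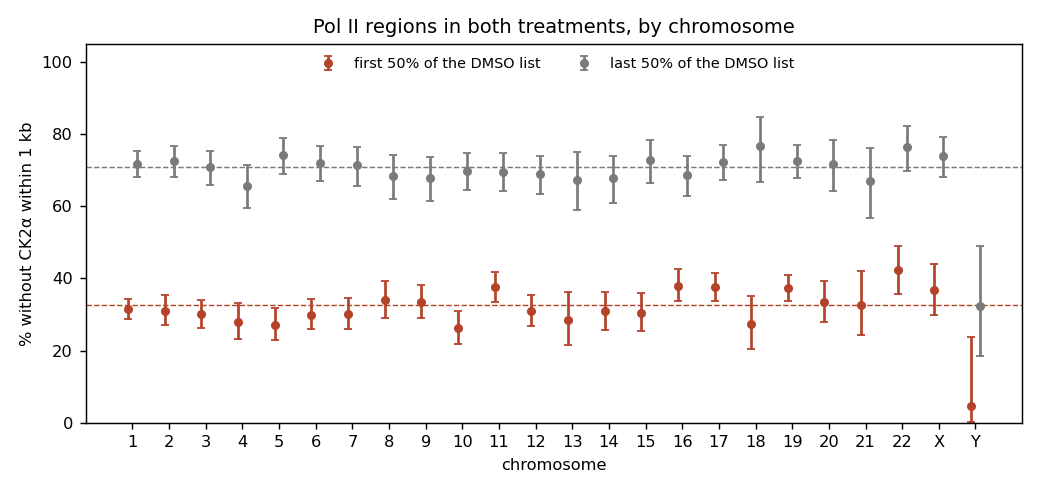
Percentage of Pol II regions called in both treatments that had no CK2α centre within 1 kb, on each chromosome, for the first and the last 50% of the DMSO list (points, with exact 95% binomial intervals; dashed lines, all chromosomes together, 32.6% and 70.8%). Chromosome 22 stands at 42.3% in the first 50%, and chromosome Y lies below both lines.

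On chromosome X the shared regions stood late in the list, at a median of 53.2% of the DMSO list, against 36.9% on chromosome 1. Relative to genes, CK2α-free regions were most frequent on chromosome 22, with 53.7 per 100 protein-coding genes, and less frequent on chromosome X, with 30.1. On chromosome 19, the densest chromosome, there were 38.4 per 100 genes.

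CK2α-free regions had a CK2α-free neighbour more often than CK2α-near regions did. The nearest other shared region was CK2α-free for 55.8% of the CK2α-free regions (54.7 to 56.9%) and for 41.1% of the CK2α-near regions (40.1 to 42.2%). Within 2 kb the rule itself ties neighbours together, because 1 CK2α region can lie within 1 kb of both. At 10 to 100 kb, where it cannot, the values were 52.5% (51.0 to 54.0%) and 45.9% (44.5 to 47.4%). Beyond 100 kb they were 46.3% and 45.3%, with overlapping intervals. The excess of like neighbours was thus seen up to 100 kb and not beyond.

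Strings of consecutive shared regions without any CK2α-near region between them numbered 3668, of which 1806 held a single region and 18 held 10 or more. The longest ran over chrX:152200908-153084715, where 14 CK2α-free regions followed one another and no CK2α region was called. In the same stretch there were 15 TBBz and 16 DMSO regions. A denser string covered chr15:40390313-40675332, with 13 CK2α-free regions in 0.285 Mb, 17 TBBz regions, 13 DMSO regions and no CK2α region. Next to it in length, chr22:48027466-50639583 held 13 CK2α-free regions with 3 CK2α regions that lay away from the shared Pol II sites. Strings that included a leading region held CK2α in some cases and not in others. No CK2α region lay in chr20:61904091-62258723, with 11 CK2α-free regions at places from 140 to 16124, or in chr17:77702274-77899235, with 10 at places from 82 to 20980. By contrast, 3 CK2α regions lay in chr19:2096152-2457001, with 10 CK2α-free regions from place 91 on, and 2 in chr7:1209471-2233136, with 12 from place 331 on. The named strings with a leading region also held regions much farther down the DMSO list. The last stood at place 11761 in chr19:2096152-2457001 and at place 19252 in chr7:1209471-2233136.

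In windows of 100 kb, 3250 of the 7731 CK2α-free regions (42.0%) lay in a window that held no CK2α region at all. The windows with the most CK2α-free regions and no CK2α were chr4:6900001-7000000, with 6 of them among 6 TBBz and 6 DMSO regions, and chr15:31600001-31700000, with 6 among 8 TBBz and 6 DMSO regions. The window chr14:100000001-100100000 held 5 CK2α-free regions, and 10 TBBz regions stood there against 5 DMSO regions. The windows with most CK2α-free regions whatever the CK2α count held 7 each: chr9:140100001-140200000 with 3 CK2α regions, chr16:2000001-2100000 with 4, chr17:76100001-76200000 with 4 and chr15:40600001-40700000 with 1.

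TBBz-only regions, meaning TBBz regions that overlap no DMSO region, stood beside strong CK2α-free sites more often than beside strong CK2α-near sites. In the first 10% of the DMSO list, 223 of 542 CK2α-free regions had a TBBz-only region within 10 kb, which is 41.1% (37.0 to 45.4%). Of the 1474 CK2α-near regions in that part, 330 had one, which is 22.4% (20.3 to 24.6%). The medians of their places were close, at 1095 and 1076, and the intervals of the shares did not overlap. Within 2 kb the values were 21.6% (18.2 to 25.3%) and 12.3% (10.7 to 14.1%). At least 2 TBBz-only regions within 10 kb were found at 12.9% of these CK2α-free regions (10.2 to 16.0%) and at 3.73% of the CK2α-near regions (2.82 to 4.83%). The size of the difference depended on how CK2α and the lists were counted. It was 18.8 percentage points with the rule used here, 6.10 points (29.5% and 23.4%) with CK2α counted only where regions overlap, and 11.5 points (29.1% and 17.6%) with the first 50% of each list.

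The difference was not constant along the list. In the fifth 10% a TBBz-only region lay within 10 kb of 19.8% of CK2α-free regions (17.1 to 22.7%) and of 17.6% of CK2α-near regions (15.4 to 20.1%). In the last 10% the order was the opposite, with 14.1% (11.6 to 17.0%) and 24.3% (16.5 to 33.5%). Over the whole list the values were 20.3% and 18.2%, so the difference at the leading sites is nearly hidden in the sum. The mirror measure, a DMSO-only region within 10 kb, gave 12.5% (9.88 to 15.6%) and 10.7% (9.12 to 12.3%) in the first 10%. Those intervals overlapped. In the second 10% it gave 14.3% (11.5 to 17.6%) and 8.27% (6.88 to 9.83%), and the intervals did not overlap. An excess beside leading CK2α-free regions was thus not limited to TBBz-only regions. Farther down, the intervals lay apart in the opposite order in the seventh and the ninth 10%. The values there were 12.5% (10.6 to 14.6%) and 19.4% (16.2 to 23.0%), then 10.3% (8.27 to 12.7%) and 19.3% (13.9 to 25.6%). With TBBz the library had more tags, and it held 12.6% of its tags in regions, against 6.79% with DMSO. The peak caller's local 10 kb filter discarded 13517 of 38299 TBBz candidates (35.3%) and 25346 of 47165 DMSO candidates (53.7%). A TBBz-only region may therefore be a site that was discarded from the DMSO list. The part of these differences in the TBBz-only calls was not tested.

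**Figure D4:**
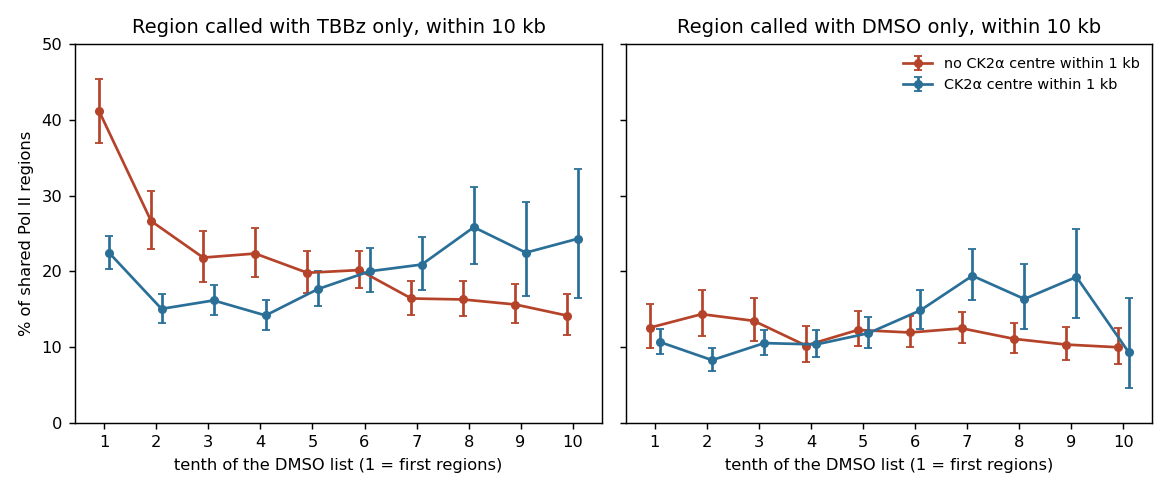
Percentage of Pol II regions called in both treatments with a region called with TBBz only (left) or with DMSO only (right) within 10 kb, in each successive 10% of the DMSO list, for regions without and with CK2α within 1 kb (exact 95% binomial intervals). In the first 10% the left panel shows 41.1% without and 22.4% with CK2α, and the lines cross in the middle of the list.

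The additional TBBz calls beside the leading sites are described here by their distance to the site, to CK2α and to DMSO regions. Near the leading CK2α-free regions there were 290 TBBz-only regions, at a median distance of 2622 bp (quartiles 1083 and 6884 bp). Near the leading CK2α-near regions there were 376, at a median of 2002 bp. A CK2α centre lay within 1 kb of 8.62% of those beside CK2α-free sites (5.66 to 12.5%) and of 42.0% of those beside CK2α-near sites (37.0 to 47.2%). Closeness to the site ties this measure to the rule, and no share over all TBBz-only regions is given beside it. The difference between these 2 shares is therefore not read as a result about the members. No DMSO centre lay within 2 kb of 40.0% (34.3 to 45.9%) and 32.4% (27.7 to 37.4%), with overlapping intervals. The remaining TBBz-only regions had a DMSO centre within 2 kb but did not overlap it.

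Pol II neighbours called with DMSO showed a related pattern. Over the whole list, another DMSO region lay within 10 kb of 38.2% of CK2α-free and 38.1% of CK2α-near regions. In the first 50% of the list the values were 45.4% (43.6 to 47.1%) and 35.3% (34.1 to 36.4%). In the last 50% they were 33.2% (31.9 to 34.6%) and 47.9% (45.7 to 50.2%). At this distance, CK2α-free regions thus had neighbours more often than CK2α-near regions in the first 50% and less often in the last 50%, although the totals of both kinds were nearly equal. When only the first 50% of each list was kept, so that weaker neighbours were no longer counted, the values became 25.6% and 29.7%, the opposite order to that of the first 50% in the full lists. Very close neighbours, within 1 kb, were less frequent at CK2α-free regions, at 9.96% (9.30 to 10.6%) against 15.5% (14.7 to 16.3%). This order held in the first 50% of the list, with 11.6% (10.5 to 12.8%) and 13.9% (13.1 to 14.8%), and in the last 50%, with 8.82% and 20.8%.

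The position of Pol II within the shared regions was nearly the same in both treatments. The centres of the TBBz and the DMSO region lay a median of 23 bp apart at CK2α-free regions (quartiles 9 and 51 bp) and 17 bp apart at CK2α-near regions (quartiles 7 and 36 bp). The rule limits this distance to 200 bp. It widened along the list, from 15 bp in the first 10% (13 to 17 bp) to 43.5 bp in the last (37 to 49 bp) at CK2α-free regions. At CK2α-near regions the first 10% also gave 15 bp (14 to 16 bp). Up to the eighth 10% the intervals of both kinds of region overlapped in every part but the second, where they touched at 15 bp. In the ninth 10% the medians were 38 bp (35 to 42 bp) and 24 bp (17 to 30 bp), and the intervals did not overlap. In the last 10% the median at CK2α-near regions was 35 bp (24 to 46 bp). The part of place in the list in the difference between the overall medians was not tested.

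**Figure D5:**
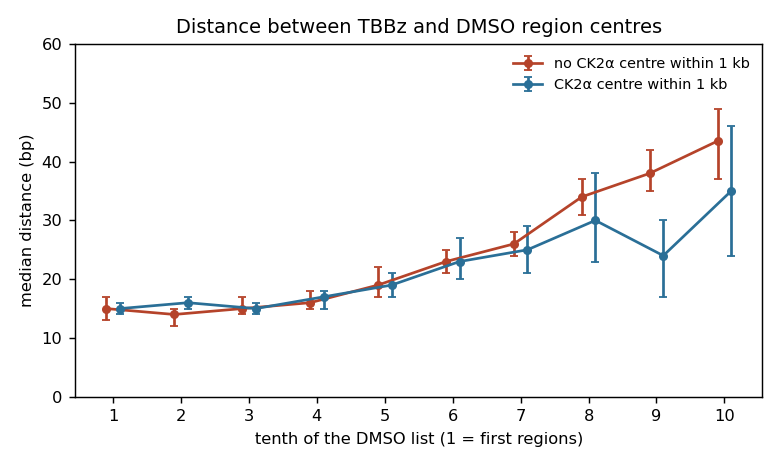
Median distance in bp between the centres of the TBBz and the DMSO region at Pol II regions called in both treatments, in each successive 10% of the DMSO list, without and with CK2α within 1 kb (95% order-statistic intervals). At regions without CK2α the median is 15 bp in the first 10% and 43.5 bp in the last.

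There was no marked preference for one side along the chromosome. The TBBz centre lay at the higher coordinate at 3930 CK2α-free regions, at the lower coordinate at 3689 and at the same base at 112. Among the leading regions with the same centre in both treatments were chr11:67981374-67981574 at place 146, chr3:170587857-170588057 at place 217 and chr5:90678997-90679197 at place 267. Without an annotation the direction of transcription was not known, so shifts along or against it were not examined. The order of the CK2α-free regions was also kept between the lists, with a Spearman's rho of 0.888 between places across 7731 regions, against 0.831 for the CK2α-near regions. Both values come from regions of the same pair of libraries and are descriptions.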

How the data were processed

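Aligned reads were made into region lists by the authors; Bowtie, HOMER and hg19 are named in the submitters' processing notes, without versions. Regions were called library by library with HOMER's factor style, per the file headers, which give a size of 200 bp, at least 500 bp between regions, a false discovery rate of 0.001, a 4-fold rise over the surrounding 10 kb and no control library. The deposited score is 1 for every region and ranks nothing. The other deposited columns hold positions; starts, which count from 0, were raised by 1. The vehicle is labelled as 25 μM DMSO.

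Centres were the rounded-down middle of start and end. Overlap meant at least 1 bp, and "within" a distance includes that distance. Lists were divided into 10 equal parts by deposited order. TBBz-only and DMSO-only regions overlap no region of the other Pol II list. Named regions are the first 10 members, the first per chromosome, those nearest the 1000 bp limit or farthest from CK2α, those with coincident centres, and the windows with most members; the strings were chosen after their values were seen, and regions of chromosome 8 are counted but not named. The members, measures and lists were chosen with earlier results of these data known. The functions were tested on simulated lists. Shares near promoters, planned for an annotation of the build, were not run. The tools were NumPy 2.4.6, SciPy 1.17.1, pandas 2.3.3 and Matplotlib 3.10.9 under Python 3.11.15.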

Additional observations from a re-analysis of the deposited data

How the results depend on the processing

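Of the alternatives, only the removal of regions up to 1 Mb from a region-free stretch (2 Mb or more) was chosen after the data were seen, as were the measures split by part of the list. That removal and the limit to chromosomes 1 to 22 and X left the number of members within 1.5 times and kept the other overall values within their counting intervals. No paired analysis was possible because there was 1 library per group. The depth limits the end of the lists; tags were not subsampled.

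With CK2α counted only where regions overlap by 1 bp, there were 12108 members, 75.1% of shared regions, at a median of 45.2% of the list, with a centre distance of 20.5 bp and 12223 bp to CK2α. With the first 50% of each list there were 4677 members, 51.7% of shared regions, at a median of 28.2%; 25.6% had a DMSO neighbour within 10 kb, the centre distance was 15 bp, and CK2α was 68142 bp away. With CK2α within 500 bp, the values were 55.0% of shared regions, a median place of 53.9%, 40.2% with a neighbour and 28462 bp to CK2α; within 2000 bp they were 45.9%, 36.2% with a neighbour and 39527 bp. With equal numbers of TBBz and DMSO regions the share was 46.5% and the median place 54.6%. With 50% overlap the median place was 55.4% and the centre distance 20 bp, and with Pol II centres within 500 bp that distance was 26 bp. A neighbour within 2 kb was found for 16.3% and within 50 kb for 77.6% of members. Stricter limits change these values by their construction; no other cause was tested.

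The excess of TBBz-only regions beside leading members (18.8 points) kept its direction in all 9 alternatives but ranged from 6.10 points, with CK2α counted by overlap, over 11.5 points, with the first 50% of each list, to 18.8 points. The excess of DMSO neighbours in the first 50% of the list (10.1 points) was −4.04 points when each list was cut to its first 50%, and 1.93 to 13.8 points otherwise. The deficit in the last 50% (−14.7 points) stayed between −18.6 and −9.88 points. The share without CK2α was lower in the first than in the last 10% of the list in each alternative that gave both, from 25.3 to 66.9% and from 84.9 to 91.4%.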

Other observations

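A part of the CK2α-free regions lay close to a Pol II site that did have CK2α. A CK2α-near shared region stood within 2 kb of 209 of the 7731 CK2α-free regions (2.70%, 2.35 to 3.09%), within 10 kb of 878 (11.4%) and within 50 kb of 3526 (45.6%). The rate of being found again with TBBz did not follow the distance to CK2α in one direction. DMSO regions with a CK2α centre up to 500 bp away were found again in 82.5% of cases (81.7 to 83.3%), those at 500 to 1000 bp in 72.0% (69.7 to 74.2%), those at 5 to 10 kb in 63.3% (60.5 to 66.1%), those at 500 kb to 1 Mb in 74.6% (68.5 to 80.0%) and those beyond 1 Mb in 73.5% (63.6 to 81.9%). The interval of the last group overlaps that of the regions at 5 to 10 kb. Partner calls chose the members, and no test was made.

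The first CK2α-free region of chromosome 4, chr4:102268922-102269122 at place 110, had its nearest CK2α centre 442829 bp away and its nearest other DMSO region 135469 bp away, and its TBBz partner stood at place 49. The first of chromosome 22, chr22:39916495-39916695 at place 216, lay 2257 bp from a CK2α region that stood at place 59 of its list, and its TBBz partner stood at place 4346 with a centre 1 bp away.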
